A study of Mus musculus with 10 samples.

Results

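The genes described here belong to the unfolded protein response and to the secretory pathway of human breast cancer cells. The list named 41 genes in 6 roles: chaperones and foldases, degradation, the ATF4 arm, stress sensors and transcription factors, translocation and COPII export. Each gene was read from probe sets that carried exactly 1 gene symbol, and was represented by the one whose signal, averaged over the 10 arrays, was highest. By this rule 40 of the 41 were found among 19556 genes, and all 40 passed the filter on low signal. SEC61G was not analysed here. The rule that picked the genes was a list of names, drawn up with earlier results of these data known.

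Estrogen receptor positive human breast cancer cells had been grown as xenografts in female nu/nu mice of 20 weeks, a strain that lacks a thymus and therefore most T cells. Every mouse was given a pellet of estrogen, which was kept in one arm and removed for 1 week in the other. The arm that kept it gave 3 lymph node metastases, from mice 6, 11 and 14, and 2 primary mammary gland tumors, from mice 11 and 14. The arm that lost it gave 3 metastases, from mice 9, 10 and 19, and 2 primary tumors, from mice 10 and 19. The labels do not name the cell line, do not describe the pellet's dose and do not say which cells were aimed at in the sections. The organism field names the host mouse, whereas the arrays carried human probe sets.

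The endoplasmic reticulum folds and modifies proteins bound for the cell surface or for secretion. When unfolded protein builds up there, 3 membrane sensors act: the kinase and nuclease ERN1, the kinase EIF2AK3 and the transcription factor precursor ATF6. ERN1 splices the mRNA of XBP1, EIF2AK3 slows translation and favors that of ATF4, and ATF6 is cut to release its active part. Their targets are chaperones, the machinery that returns misfolded protein to the cytosol for degradation, and stress genes such as DDIT3. In luminal breast cells XBP1 is abundant and is known as an estrogen-induced gene. The arrays measured mRNA abundance only and do not show splicing, phosphorylation or cleavage.

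Values are log2 signal, so a difference of 1 is a doubling. A gene was called where limma's adjusted p, by Benjamini-Hochberg over 17170 genes, was below 0.05. Errors of differences are standard errors (SE) of that fit. Both arrays of primary tumors with estrogen had a narrow range of signal, with 99th percentiles of 9.44 and 10.04 against 11.38 to 11.67 on the other 8. The 3′ minus 5′ signal of the control probe sets, a sign of RNA quality and of the reach of amplification, was also lowest on them. For ACTB it was 4.27 and 4.49 against 5.40 to 6.63 on the other 8, and for GAPDH 3.15 and 3.73 against 3.84 to 5.87. All comparisons were therefore also made after quantile normalization, which gives the arrays 1 common distribution. The hybridization controls, RNAs added at the hybridization step, split the arrays in a different way. These controls averaged 12.04 to 12.47 on the lymph node arrays of mice 11 (estrogen) and 19 (withdrawn) and on the primary tumors of the withdrawn arm. On the remaining 6 arrays they averaged 9.47 to 10.59. Markers of luminal epithelium (10 of 10 found) had array means of 9.03 to 10.58 on 8 arrays and 7.81 to 7.95 on the 2 primary tumors with estrogen. B and plasma cells, which are rich in secretory pathway mRNA, had marker means of 2.69 to 3.24 over 9 genes found. Of these 9 genes 8 had a mean below 4, among them the plasma cell genes JCHAIN (2.13) and TNFRSF17 (2.20). Markers of T and NK cells (9 found, 2.82 to 3.23), myeloid cells (7 found, 2.51 to 3.33), stroma (10 found, 3.21 to 3.71), endothelium (10 found, 3.61 to 4.01) and fat (6 found, 2.79 to 3.01) had array means of 4.01 or below. Single genes with means below 4 numbered 8 for T and NK cells, 6 for myeloid cells, 8 for stroma, 6 for endothelium and 5 for fat. Such cells would belong to the host mouse, whereas the probe sets were human, so low values do not show that they were absent. Each array read RNA of cells laser-captured from frozen sections, in which fewer cells of a type and less RNA per cell cannot be told apart.

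**Figure D1:**
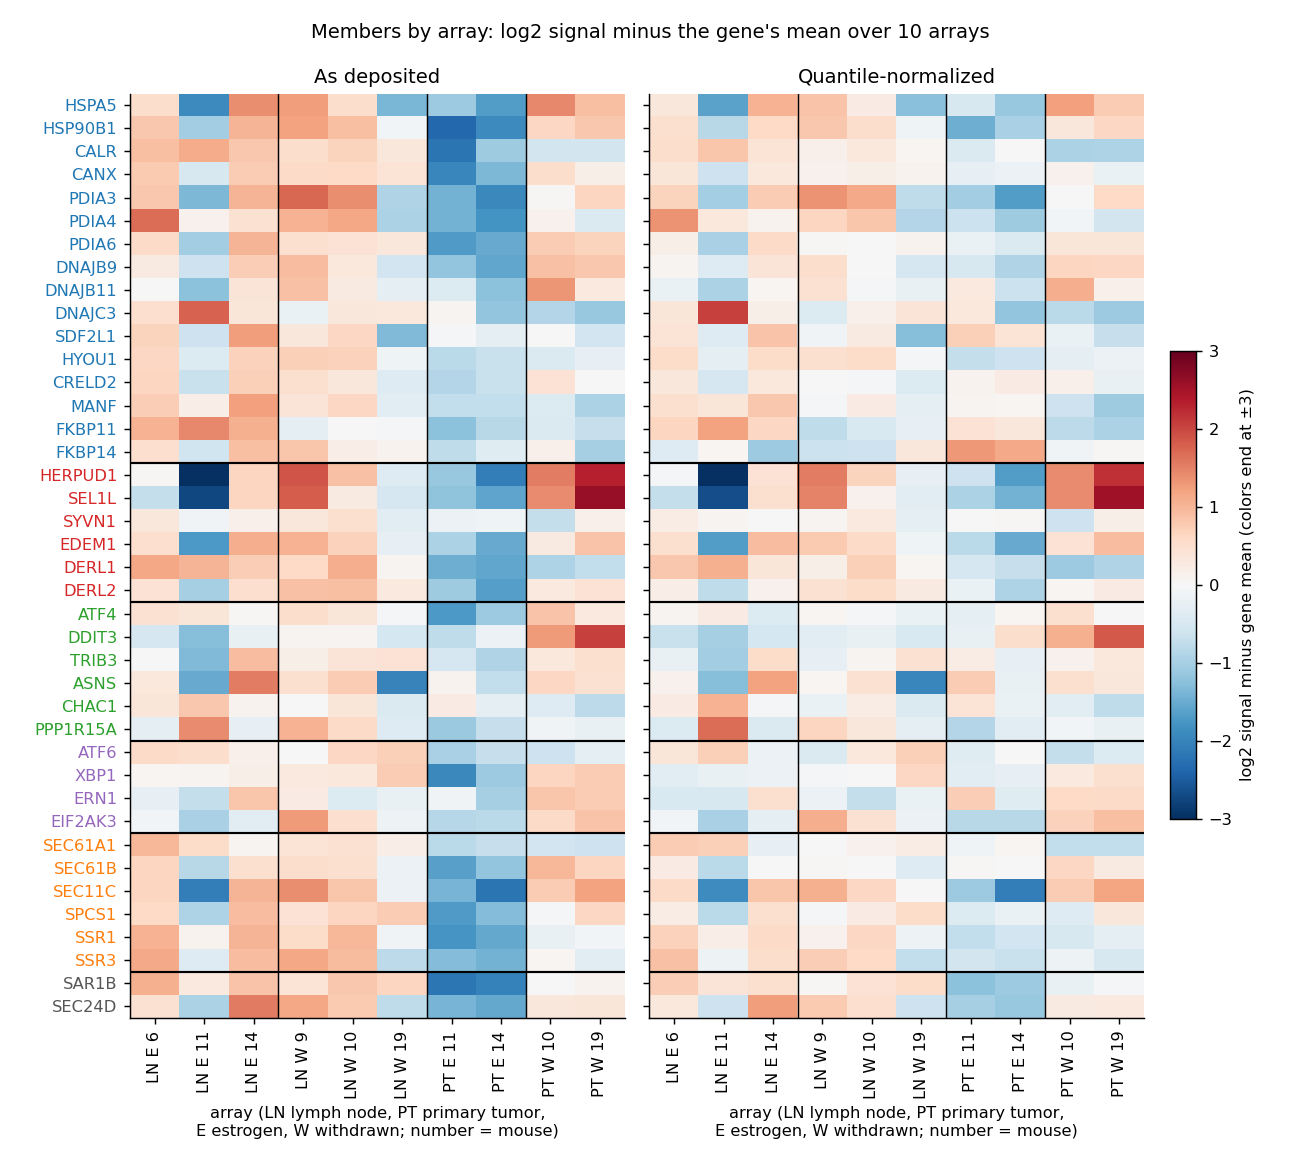
Log2 signal of the 40 members on the 10 arrays, shown as the difference from each gene's own mean (color, in log2 units, ending at ±3), as deposited on the left and after quantile normalization on the right. Rows are genes grouped and colored by role, columns are arrays grouped by site and pellet, and the number is the mouse. As deposited, the 2 primary tumors with estrogen are low for most genes and hold the lowest value of 27 of the 40. The lymph node array of mouse 11 is also low for many chaperone and degradation genes, on both sides.

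As deposited, the lowest array was a primary tumor with estrogen for 16 members in mouse 11 and 11 members in mouse 14, and the highest array was neither of them for any member. The median of the 40 members was 6.74 and 6.48 on these 2 arrays. It lay between 7.01 and 8.27 on the other 8. After quantile normalization the array with the most lowest values was the lymph node of mouse 11, with 13 members, and the primary tumors with estrogen held 5 and 7. The members therefore had 2 features to follow: a general lowering in primary tumors with estrogen that went with the narrow signal range, and a spread among lymph node arrays that did not follow the pellet.

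The first comparison asked how the primary tumors differed with and without estrogen. In these tumors 9 of the 40 members fell with estrogen and 0 rose, where 6.94% of all genes were called lower and 0.879% higher. They were the chaperones HSP90B1, CANX, PDIA6 and DNAJB9, the stress transcription factors ATF4, DDIT3 and XBP1, the translocon subunit SEC61B and the coat GTPase SAR1B. Of the 40 members 36 lay below 0, with a median difference of −1.53 against −0.10 over all genes. In 34 members both arrays with estrogen lay below both withdrawn arrays, as they did for 38.3% of all genes. After quantile normalization 0 members were called, where 0.6% of all genes were called lower and 0.775% higher, and the median was −0.41 against 0.06. Both arrays with estrogen then lay below both withdrawn ones in 52.5% of the members and 26.7% of all genes. They lay above in 22.5% and 31.2%, so separate groups were common on that scale. The 3′ minus 5′ signal of ACTB and GAPDH, lowest on the 2 arrays with estrogen, moved with this comparison, and its part in the result was not tested.

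Those calls rested on few arrays. Without the withdrawn primary tumor of mouse 19 or the estrogen-treated one of mouse 11, 0 members were called, as were 0.0291% and 0.14% of all genes. The count was 1 without the withdrawn tumor of mouse 10 (1% of all genes) and 4 without the estrogen-treated tumor of mouse 14 (3.01%). A lymph node array enters this comparison through the shared spread. Leaving one out gave 3 member calls without mouse 10 (3.03% of all genes), 6 without mouse 6 (4.14%) and 6 without mouse 9 (5.62%). It gave 10 without mouse 19 (8.85%), 10 without mouse 14 (11.3%) and 20 without mouse 11 (20.8%). The share of all genes called was highest in the fit that called the most members.

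Among sensors and transcription factors, XBP1, the factor made active by ERN1, had a signal of 11.03 (mouse 11) and 11.87 (mouse 14) with estrogen and of 13.60 (mouse 10) and 13.72 (mouse 19) after withdrawal. The 2 groups did not overlap, and the difference of −2.21 ± 0.31, a 4.62-fold lower signal with estrogen, was called (limma adjusted p = 0.0116). After quantile normalization the 4 arrays read 12.64, 12.73, 13.28 and 13.47. The order of the arrays stayed, while the difference shrank to −0.69 ± 0.27 and was not called (limma adjusted p = 0.193). The sensor kinase EIF2AK3 had 2.17 and 2.20 with estrogen and 3.60 and 3.86 after withdrawal, a difference of −1.54 ± 0.45 that missed the threshold (limma adjusted p = 0.0734). Both values with estrogen lay below 2.311, the level of the filter on low signal, so the size of this difference is limited by the low end of the scale. After quantile normalization it read −1.64 ± 0.42 (limma adjusted p = 0.0886), and 1 of its 2 probe sets had the other sign. ERN1 (−1.35, and −0.39 after quantile normalization) and ATF6 (−0.39 and 0.36) were not called on either scale.

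In the ATF4 arm, which answers to EIF2AK3, ATF4 itself had 8.47 (mouse 11) and 9.08 (mouse 14) with estrogen and 11.04 (mouse 10) and 10.47 (mouse 19) after withdrawal. The groups lay well apart, and the difference of −1.98 ± 0.33 was called (limma adjusted p = 0.0161). After quantile normalization the arrays with estrogen, at 9.90 and 10.22, overlapped the withdrawn ones at 10.66 and 10.18, and the difference was −0.36 ± 0.29. DDIT3, a transcription factor that promotes cell death under lasting stress, had 5.92 and 6.50 with estrogen and 7.96 and 8.72 after withdrawal. Its groups did not overlap, and its difference of −2.13 ± 0.43 was called (limma adjusted p = 0.0259). On the quantile scale DDIT3 kept separate groups (6.44 and 7.19 against 7.74 and 8.51) with a difference of −1.31 ± 0.35 (limma adjusted p = 0.0928). The other members of the arm were not called. They were the pseudokinase TRIB3 (−1.11), the asparagine synthetase ASNS (−0.84), the phosphatase subunit PPP1R15A (−0.71) and CHAC1, an enzyme that breaks down glutathione, which lay above 0 at 0.58. The arm's median was −0.98 as deposited and −0.30 after quantile normalization.

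Chaperones and foldases gave 4 of the 9 calls in primary tumors. HSP90B1, the Hsp90 of the endoplasmic reticulum, had 7.10 (mouse 11) and 7.54 (mouse 14) with estrogen and 10.07 (mouse 10) and 10.26 (mouse 19) after withdrawal, a 7.21-fold lower signal with estrogen (−2.85 ± 0.67, limma adjusted p = 0.038). All 5 of its probe sets had that sign, and its groups stayed apart after quantile normalization with a difference of −1.69 ± 0.50. CANX, a lectin chaperone of the membrane, had 9.29 and 9.91 with estrogen and 11.78 and 11.43 after withdrawal (−2.01 ± 0.44, limma adjusted p = 0.0315). On the quantile scale CANX read 11.03 and 11.09 against 11.40 and 11.06, so its groups overlapped and its difference was −0.18 ± 0.34. The disulfide isomerase PDIA6 (−2.33 ± 0.56) and the co-chaperone DNAJB9 (−2.19 ± 0.53) were called as deposited and read −0.68 and −1.32 after quantile normalization. HSPA5, the central Hsp70 chaperone that also holds the sensors inactive, had 6.17 and 5.60 with estrogen and 8.72 and 8.19 after withdrawal. Its groups did not overlap on either scale, yet the difference of −2.56 ± 1.08 (−1.78 ± 0.87 after quantile normalization) was not called, and its other probe set had the opposite sign.

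Not all folding genes lay lower. The co-chaperone DNAJC3 (0.47) and SDF2L1 (0.12) were above 0 as deposited. The lectin chaperone CALR had 9.94 and 11.07 with estrogen and 11.59 on both withdrawn arrays as deposited, and 11.71 and 12.13 against 11.21 and 11.23 after quantile normalization. Its groups were thus separate in opposite directions on the 2 scales (−1.09 and 0.71), and it was called on neither. The prolyl isomerase FKBP11 likewise turned from −0.47 to 1.26 (limma adjusted p = 0.0664 after quantile normalization). MANF, a secreted stress-induced protein, turned from −0.05 to 0.92. FKBP14 turned from −0.15 to 1.23, but its probe set with the highest mean was a different one on the quantile scale. The direction of these genes in primary tumors depends on the scale.

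The degradation members held the largest differences and 0 calls. HERPUD1, a membrane protein that organizes the retrotranslocation complex, had 5.57 (mouse 11) and 4.66 (mouse 14) with estrogen and 8.26 (mouse 10) and 9.05 (mouse 19) after withdrawal. These groups were far apart on both scales, with differences of −3.54 ± 1.31 and −2.95 ± 1.18, but were not called (limma adjusted p = 0.13 and 0.201). The fit shares its spread with the lymph node arrays, where HERPUD1 ran from 2.98 to 8.62. The part of those arrays in the missing call was not tested. SEL1L, the adaptor of the ubiquitin ligase SYVN1, followed it at −3.38 ± 1.05 and −3.13 ± 0.93 (limma adjusted p = 0.0831 and 0.113). EDEM1, which marks misfolded glycoproteins by trimming their sugars, read −1.80 and −1.84, and DERL2, a channel-associated protein, −1.73 and −0.74. SYVN1 itself read 0.12 and 0.23, so the ligase did not share the low values of its adaptor. The median of the 6 degradation members was −1.77 as deposited and −1.29 after quantile normalization, which kept more of its size than that of the chaperones (−1.27 and −0.31). The normalization moved genes by their signal. The median of all genes over 10 went from −1.90 to −0.18, and that at 4 to 6 from −0.12 to 0.13. Mean signals as deposited ran from 4.34 (SYVN1) to 8.89 (DERL1) in degradation and from 3.90 (FKBP14) to 12.14 (CALR) in chaperones. The part of signal in this contrast was not tested.

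In translocation, SEC61B, a subunit of the channel through which new proteins enter, had 9.05 (mouse 11) and 9.50 (mouse 14) with estrogen and 11.68 (mouse 10) and 11.32 (mouse 19) after withdrawal. The difference of −2.23 ± 0.49 was called (limma adjusted p = 0.0326), although 1 of its 2 probe sets had the other sign. After quantile normalization it was −0.44 ± 0.35. SEC61A1, the channel itself, had 6.66 and 6.78 with estrogen and 6.88 and 6.84 after withdrawal. Its difference was −0.15 as deposited and 0.69 after quantile normalization, and it was called on neither scale. Of the signal peptidase subunits, SEC11C read −2.78 ± 0.94 and −2.56 ± 0.80 on the 2 scales, and SPCS1 −1.81 and −0.31. The translocon-associated proteins SSR1 (−1.51 and −0.28) and SSR3 (−1.21 and −0.30) were not called either.

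For export, SAR1B, the GTPase that starts the COPII coat, had 7.32 (mouse 11) and 7.46 (mouse 14) with estrogen and 9.51 (mouse 10) and 9.61 (mouse 19) after withdrawal. Its difference of −2.18 ± 0.29 had the smallest adjusted p of the members (limma adjusted p = 0.011). On the quantile scale the 4 values were 8.20, 8.34, 9.20 and 9.36, still separate, with a difference of −1.03 ± 0.25 that missed the threshold (limma adjusted p = 0.0821). The coat subunit SEC24D read −1.81 and −1.33 and was called on neither scale, and 1 of its 4 probe sets had that sign.

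**Figure D2:**
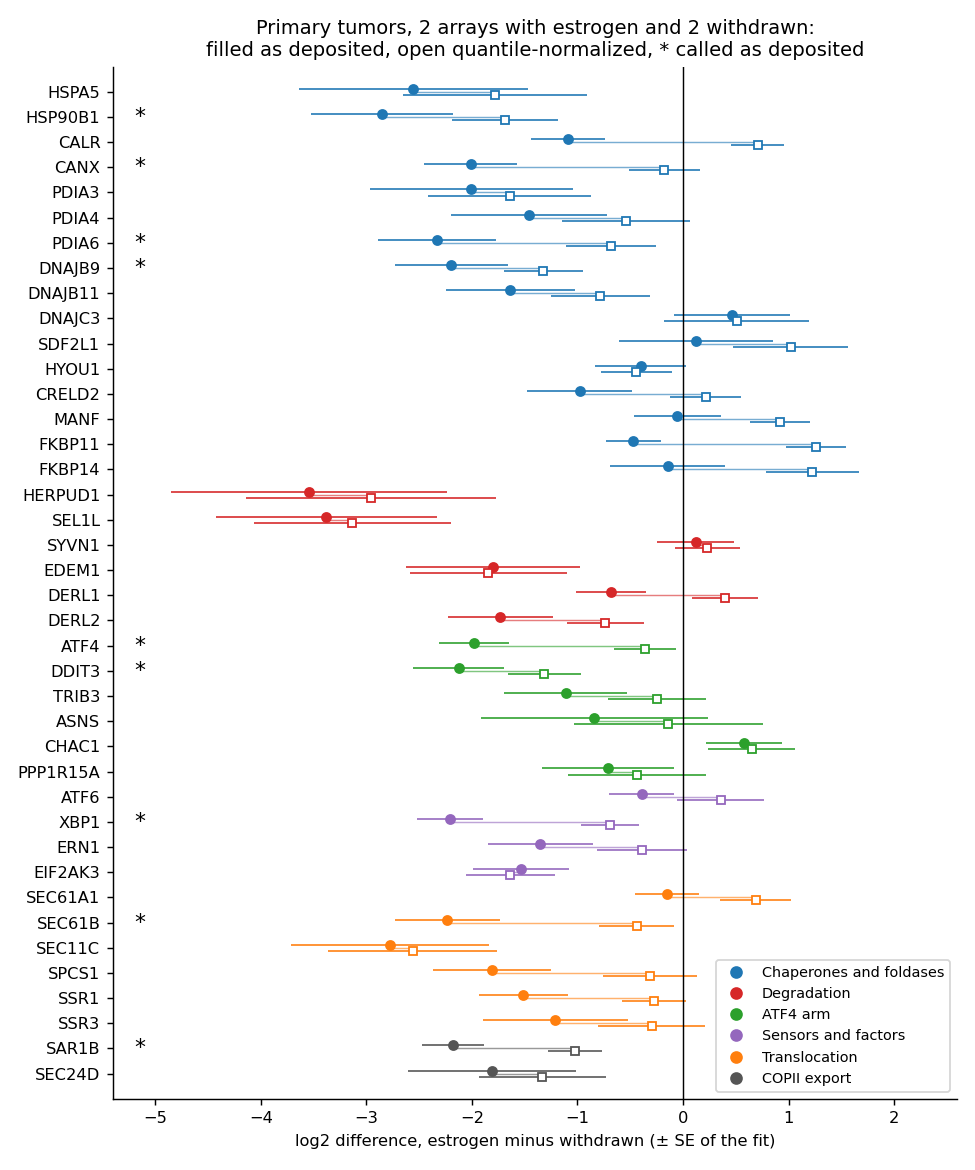
Log2 difference between primary tumors with estrogen and withdrawn ones (2 arrays each) for each of the 40 members, with the SE of the fit as horizontal bars. Filled circles are the deposited values, open squares the quantile-normalized ones, colors are roles, and an asterisk marks a call as deposited. Most members move toward 0 or past it after quantile normalization, while HERPUD1 (−3.54 and −2.95), SEL1L (−3.38 and −3.13) and SEC11C (−2.78 and −2.56) move little.

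The deposited differences in primary tumors followed signal. Genes with a mean signal over 10 had a median difference of −1.90 over all 847 such genes and of −2.01 over the 7 members among them, whereas the 7624 genes below 4 had a median of 0.11. For signals of 6 to 8 the medians were −0.77 over 3145 genes and −1.49 over 14 members. For 4 to 6 they were −0.12 over 3862 genes and −0.55 over 8 members. After quantile normalization the genes over 10 had a median of −0.18 and the members among them −0.36, and in the range of 6 to 8 the medians were 0.02 and −0.59. The strongest members by signal, such as XBP1, CALR, CANX and SEC61B, therefore lay in a range where most genes were lower as deposited. How far the narrow signal range of the 2 arrays enters the members' differences was not tested beyond this normalization.

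**Figure D3:**
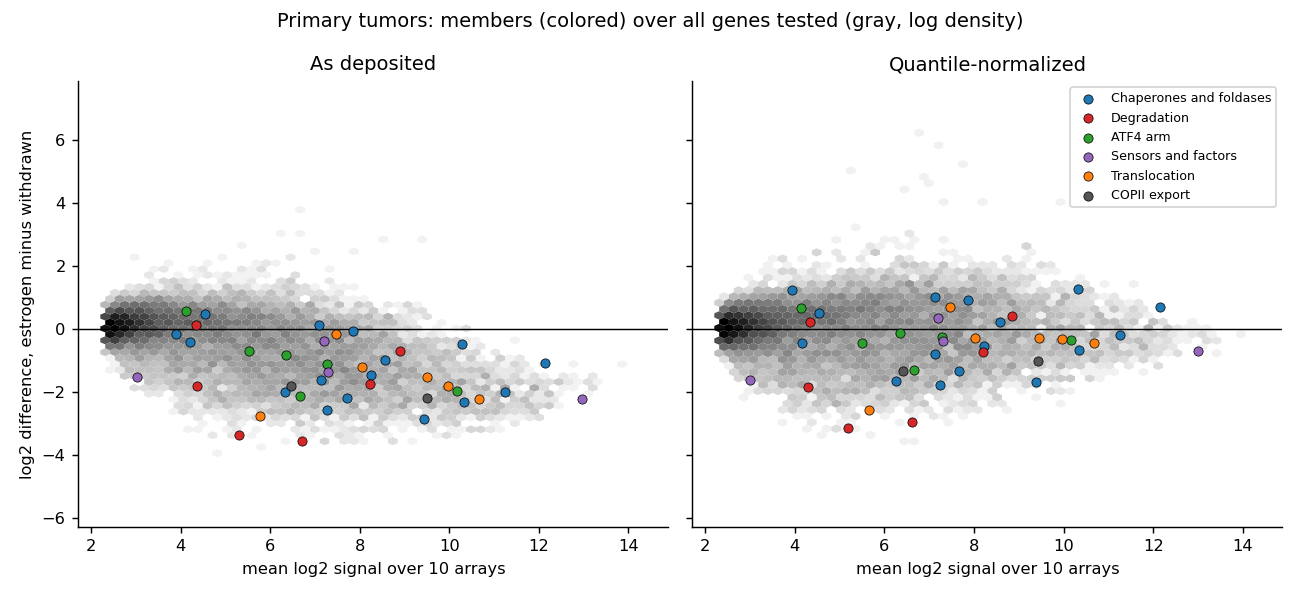
Mean log2 signal over the 10 arrays (horizontal) against the log2 difference of primary tumors with estrogen minus withdrawn ones (vertical), as deposited on the left and quantile-normalized on the right. Gray hexagons are all genes tested (darker is denser, on a log scale) and colored points the members by role. As deposited, the gray cloud bends down with signal, to a median of −1.90 for genes over 10, while on the right the cloud is level. As deposited, the members' median lies below that of all genes in every range of signal, though members such as FKBP11, MANF and DNAJC3 lie above it.

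Lymph node metastases were next compared with primary tumors in mice with estrogen, a comparison that shares the 2 narrow arrays with the one above. In the lymph node 11 of the 40 members were called higher, 0 lower and 29 in neither direction, where 7.81% of all genes were called higher and 0.949% lower. Of the 40 members 39 lay above 0, with a median of 1.41 against 0.26 over all genes, and in 25 of them all lymph node arrays lay above both primary tumors, against 28% of all genes. After quantile normalization 1 member was called, SAR1B, where 0.0932% of all genes were called higher and 0.414% lower. The median was then 0.43 against 0.02. All lymph node arrays lay above both primary tumors in 32.5% of the members and 13.5% of all genes on that scale, and below in 5% and 14.4%. With mouse as a fixed block, and likewise in a fit of the 2 groups alone, 0 members and 0% of all genes were called. Dropping the lymph node of mouse 6 gave 5 calls (2.29% of all genes), dropping the lymph node of mouse 11 gave 26 (22.4%), and dropping the primary tumor of mouse 11 gave 4 (1.05%).

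SAR1B had 10.55 (mouse 6), 9.78 (mouse 11) and 10.36 (mouse 14) in lymph nodes with estrogen against 7.32 and 7.46 in primary tumors. The groups stood more than 2 units apart, and the difference was 2.85 ± 0.27, a 7.20-fold higher signal (limma adjusted p = 0.00311). On the quantile scale its lymph node values of 10.16, 9.80 and 9.90 still lay above the primary tumors at 8.20 and 8.34, with a difference of 1.70 ± 0.24 (limma adjusted p = 0.0215). Of its 4 probe sets 3 had this sign as deposited. Among the 19 alternative settings run for this comparison, SAR1B was called in 17, the exceptions being the fixed block and the fit of the 2 groups alone.

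Among chaperones CALR had 13.03 (mouse 6), 13.26 (mouse 11) and 12.94 (mouse 14) in lymph nodes against 9.94 and 11.07 at the primary site (2.57 ± 0.32, limma adjusted p = 0.00679). FKBP11 had 11.34, 11.74 and 11.36 against 9.06 and 9.46 (2.21 ± 0.24, limma adjusted p = 0.00465). Both genes had close values on the 3 lymph node arrays, unlike HSPA5, which had 7.80, 5.37 and 8.68 there and overlapped the primary tumors. CANX (2.02 ± 0.41) and HSP90B1 (2.39 ± 0.62) were called too. Among the 19 alternative settings HSP90B1 stayed called in only 5 and CANX in 13, against 16 each for CALR and FKBP11. After quantile normalization CALR read 0.81, FKBP11 0.43, CANX 0.24 and HSP90B1 1.31, and none of the 4 was called.

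DERL1, a derlin of the degradation machinery, had 10.04 (mouse 6), 9.92 (mouse 11) and 9.63 (mouse 14) in lymph nodes against 7.43 and 7.32 at the primary site (2.49 ± 0.31, limma adjusted p = 0.00647). It kept separate groups on the quantile scale, at 1.35 ± 0.29 (limma adjusted p = 0.103). It was the only degradation member called, and HERPUD1 (0.61) and SEL1L (0.45) had lymph node values that overlapped those of the primary tumors.

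In translocation, SSR1 had 10.55, 9.62 and 10.51 in lymph nodes against 7.72 and 7.96 (2.39 ± 0.39, limma adjusted p = 0.0102), and all 7 of its probe sets had this sign. The channel gene SEC61A1 had 8.46, 8.01 and 7.54 against 6.66 and 6.78 (1.30 ± 0.28, limma adjusted p = 0.0254). On the quantile scale SSR1 kept separate groups at 1.15 and SEC61A1 did not, at 0.45. Of the factors, XBP1 had 13.02, 13.04 and 13.14 against 11.03 and 11.87 (1.61 ± 0.29), ATF4 10.63, 10.54 and 10.22 against 8.47 and 9.08 (1.69 ± 0.31) and ATF6 7.77, 7.72 and 7.33 against 6.23 and 6.49 (1.25 ± 0.29). All 3 were called, and all 3 lost separate groups after quantile normalization, where they read 0.05, 0.09 and 0.50. Among the 19 alternative settings ATF6 stayed called in 8, SEC61A1 in 11, and SSR1, XBP1 and ATF4 in 14 each. DDIT3 was the member below 0, with lymph node values of 6.17, 5.39 and 6.44 and primary tumor values of 5.92 and 6.50 (−0.20, and −0.88 after quantile normalization).

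**Figure D4:**
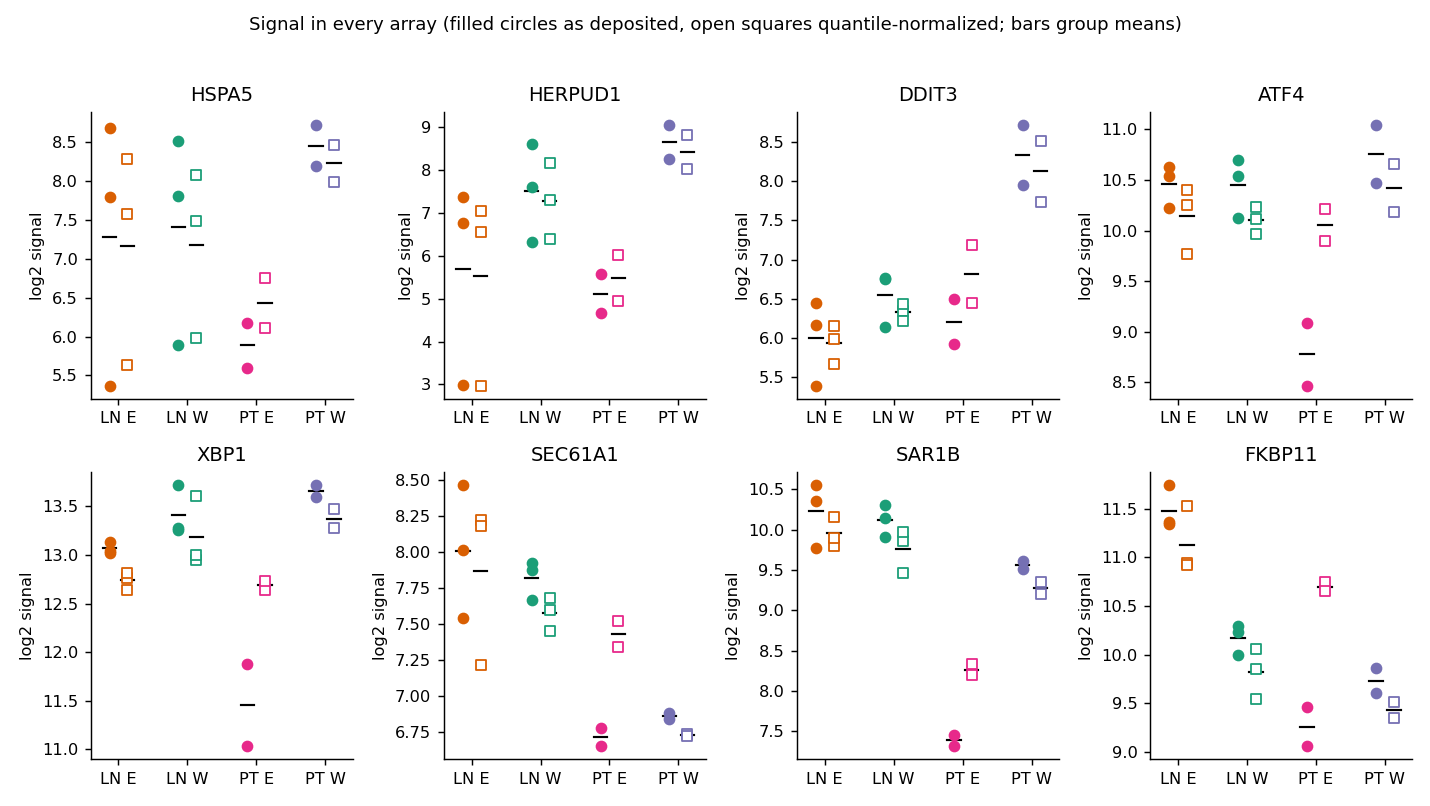
Log2 signal of 8 members on every array, by group (LN lymph node, PT primary tumor, E estrogen, W withdrawn). Filled circles are deposited values, open squares quantile-normalized values and bars group means. SAR1B is lowest in primary tumors with estrogen on both scales. XBP1 and ATF4 are as well as deposited, but not apart from the lymph nodes with estrogen after quantile normalization. FKBP11 is higher in all 3 lymph nodes with estrogen than in all 3 withdrawn ones.

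In lymph node metastases the pellet was followed by no call: 0 of the 40 members and 0% of all genes were called in either direction, while 2 members and 1002 genes had an unadjusted limma p below 0.05. The members' median difference was −0.11 against −0.02 over all genes, with 16 above and 24 below 0. After quantile normalization it was 0.03 against 0.02, again with 0 calls. The member with the clearest separation was FKBP11. It had 11.34 (mouse 6), 11.74 (mouse 11) and 11.36 (mouse 14) with estrogen and 9.99 (mouse 9), 10.30 (mouse 10) and 10.23 (mouse 19) after withdrawal. All estrogen arrays lay above all withdrawn ones, and the difference was 1.31 ± 0.21 on the deposited and 1.31 ± 0.23 on the quantile scale (limma adjusted p = 0.205 and 0.222). All 3 of its probe sets had that sign. The next by moderated t were DNAJC3 (0.72 ± 0.45) and CHAC1 (0.45 ± 0.30), neither past the threshold. The groups of DNAJC3 were separate as deposited and overlapped after quantile normalization, and those of CHAC1 overlapped on both scales. CALR, with a smaller moderated t, had 13.03, 13.26 and 12.94 with estrogen and 12.68, 12.82 and 12.47 after withdrawal. Its groups were separate on both scales, with differences of 0.42 ± 0.29 and 0.41 ± 0.20 (limma adjusted p = 0.927 and 0.829). As deposited, all arrays with estrogen lay above all withdrawn ones in 7.5% of the members and 4.47% of all genes, and below in 2.5% and 5.46%. On the quantile scale these shares were 7.5% and 5.45% above, and 7.5% and 5.63% below.

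At the other end stood EIF2AK3 (−0.99 ± 0.37, limma adjusted p = 0.759), DERL2 (−0.71 ± 0.41) and SEL1L (−1.46 ± 0.86). EIF2AK3 had 2.93, 2.05 and 2.70 with estrogen and 4.29, 3.51 and 2.86 after withdrawal, so the groups overlapped by 1 array, and the value of mouse 11 lay below the filter level of 2.311. HERPUD1 had 6.76 (mouse 6), 2.98 (mouse 11) and 7.37 (mouse 14) with estrogen and 8.62 (mouse 9), 7.61 (mouse 10) and 6.32 (mouse 19) after withdrawal. The array of mouse 11 stood lowest by far, the groups overlapped, and the difference was −1.81 ± 1.07. XBP1 differed little, with 13.02, 13.04 and 13.14 with estrogen against 13.25, 13.28 and 13.72 after withdrawal. All withdrawn arrays lay above all estrogen arrays, but by −0.35 ± 0.25 (limma adjusted p = 0.936). HSPA5 overlapped, with 7.80, 5.37 and 8.68 against 8.52, 7.80 and 5.90. So did ATF4 (0.01 ± 0.27), DDIT3 (−0.55 ± 0.35), SEC61A1 (0.18 ± 0.25) and SAR1B (0.11 ± 0.24).

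Within the lymph node, the arrays were also split by their hybridization controls. On the arrays of mouse 11 with estrogen and mouse 19 withdrawn, where those controls were high, 24 of the 40 members (60%) lay below all 4 other lymph node arrays, against 24.6% of all genes. Above all 4 lay 0 members, against 13.8% of all genes. The 24 that lay below held the chaperones HSPA5, HSP90B1, PDIA3, PDIA4, PDIA6 and DNAJB9, the degradation genes HERPUD1, EDEM1 and DERL2, the stress genes DDIT3 and ASNS, and the translocation genes SEC61B, SEC11C, SSR1 and SSR3. The median shift was −0.90 over the members and −0.08 over all genes. After quantile normalization 16 members (40%) lay below, against 18.3% of all genes. Above lay 3 members, DNAJC3, FKBP14 and ATF6, against 18% of all genes. FKBP14 was among the 24 that lay below as deposited, and was read from a different probe set on the quantile scale. This split was found in the arrays and is no group of the study, and the part of the controls in the members' signal was not tested. Within the low side (2 against 2 arrays) 22 members lay above and 18 below 0 with estrogen, with a median of 0.05. Within the high side (1 against 1) 15 lay above and 25 below, with a median of −0.33. The withdrawn primary tumors of mice 10 and 19 had high controls too, at 12.47 and 12.33. Their member medians as deposited were 8.04 and 7.86, against 7.01 (mouse 11) and 7.20 (mouse 19) on the lymph node arrays with high controls.

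After withdrawal, lymph nodes and primary tumors gave 0 calls among the members and 0% in either direction among all genes. The members' median was 0.18 against 0.07 (0.02 against 0.01 after quantile normalization). Here no array had the narrow range. DDIT3 stood lowest, with 6.76 (mouse 9), 6.75 (mouse 10) and 6.14 (mouse 19) in lymph nodes and 7.96 (mouse 10) and 8.72 (mouse 19) in primary tumors. The groups did not overlap, and the difference was −1.78 ± 0.40 and −1.79 ± 0.32 on the 2 scales, without a call (limma adjusted p = 0.218 and 0.22). ERN1 (−0.92 ± 0.46) and SEL1L (−1.47 ± 0.97) followed. At the other end stood DERL1 with 9.49, 9.99 and 8.96 against 7.97 and 8.15 (1.42 ± 0.31, limma adjusted p = 0.199). SEC61A1 had 7.87, 7.92 and 7.67 against 6.88 and 6.84 (0.96 ± 0.28), and CALR 12.68, 12.82 and 12.47 against 11.59 on both primary tumors (1.06 ± 0.32). These 3 genes had separate groups on both scales. As deposited, all lymph nodes lay above both primary tumors in 22.5% of the members and 20.8% of all genes, and below in 10% and 10.2%. After quantile normalization these shares were 25% and 17.6% above, and 12.5% and 13.9% below. With estrogen the 3 genes were called higher in the lymph node as deposited, but SEC61A1 overlapped there after quantile normalization.

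The 4 mice that gave both sites allowed a comparison within the animal, added after the data were seen. Lymph node minus primary tumor gave a member median of 0.56 in mouse 11 and 1.94 in mouse 14, both with estrogen, and of 0.43 in mouse 10 and −0.36 in mouse 19, both withdrawn. The medians over all genes were 0.12, 0.23, 0.10 and 0.05. After quantile normalization the member medians were 0.07, 0.81, 0.21 and −0.24 in the same order, and within each pellet state the 2 mice differed. Of the 40 members, 13 (32.5%) were higher in the lymph node of all 4 mice as deposited and 9 (22.5%) after quantile normalization, against 16.6% and 9.05% of all genes. The 9 were CALR, DNAJC3, HYOU1, MANF, FKBP11, DERL1, CHAC1, SSR1 and SAR1B. Of these, SSR1 was not among the 13 as deposited, where it read −0.01 in mouse 19. In mice 10, 11, 14 and 19, in this order, DERL1 was higher by 2.01, 2.49, 2.31 and 0.82 as deposited, and SAR1B by 0.80, 2.46, 2.90 and 0.53. DDIT3 was the 1 member (2.5%) lower in all 4 mice on both scales, against 4.01% of all genes as deposited and 6.52% after quantile normalization. Its differences were −1.21, −0.53, −0.06 and −2.58 as deposited. HERPUD1 had −0.65, −2.59, 2.71 and −2.73, and mouse 14 stood against the other 3 in SEL1L and HSPA5 as well.

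The difference between the 2 estrogen responses, lymph node minus primary tumor, called 0 of the 40 members. Of all genes 0% were called higher and 0.0116% lower. As deposited 38 members lay above 0, with a median of 1.42 against 0.15 over all genes, and after quantile normalization 30 did, with a median of 0.40 against −0.02. The members furthest above 0 by moderated t were SAR1B (2.29 ± 0.38, limma adjusted p = 0.137), FKBP11 (1.78 ± 0.34, limma adjusted p = 0.142) and ATF4 (1.99 ± 0.43, limma adjusted p = 0.163), followed by XBP1 (1.86 ± 0.41). On the quantile scale these read 1.21, 0.05, 0.40 and 0.24. SYVN1 (−0.15) and CHAC1 (−0.13) were the 2 members below 0 as deposited. The calls in primary tumors and their lack in lymph nodes were thus not shown to be a difference between the sites. Without the lymph node array of mouse 11 with estrogen 13 members and 8.99% of all genes were called, and without the primary tumor of mouse 14 with estrogen 2 members and 1.13% of all genes were.

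**Figure D5:**
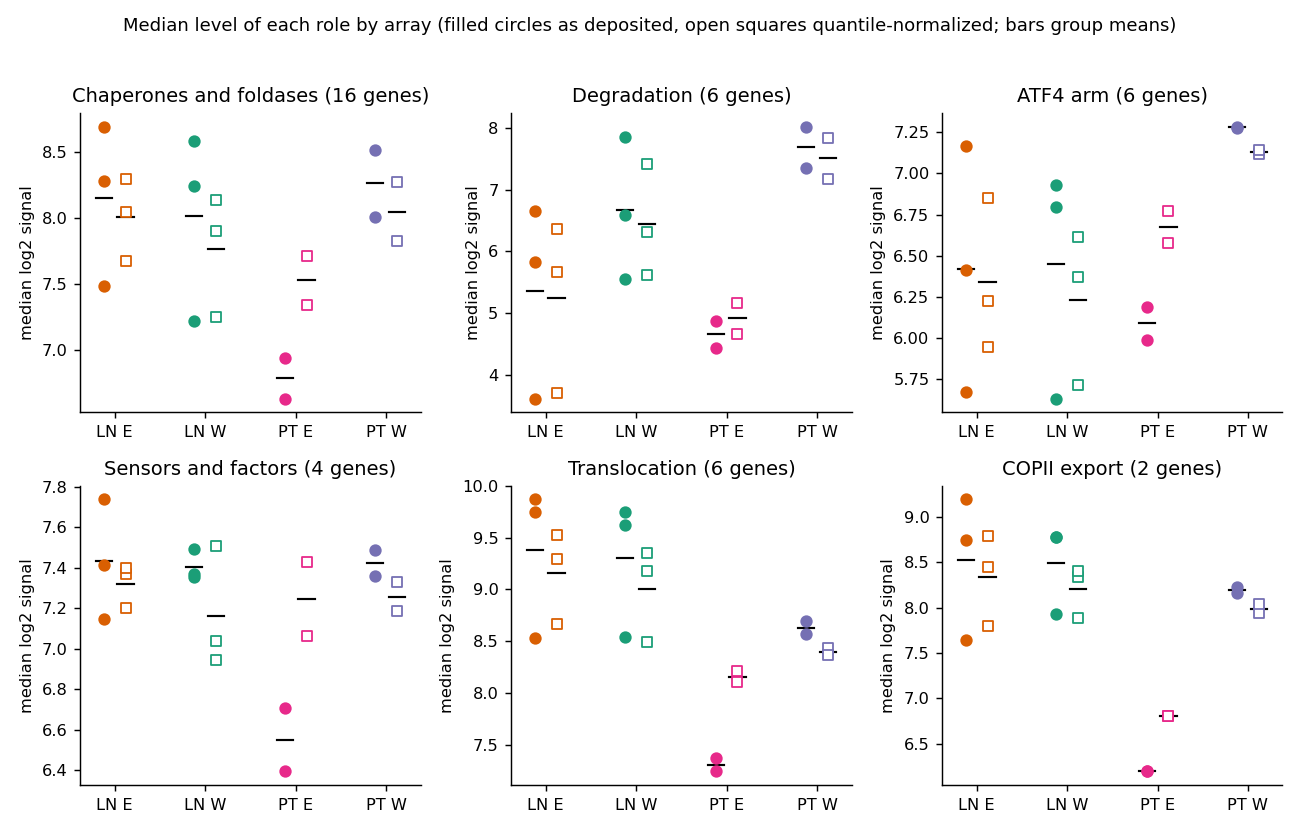
Median log2 signal of the members of each role on every array, by group (LN lymph node, PT primary tumor, E estrogen, W withdrawn). Filled circles are deposited values, open squares quantile-normalized values and bars group means. Translocation and COPII medians are lowest in the 2 primary tumors with estrogen on both scales. Degradation medians have their highest group mean in withdrawn primary tumors and span 3.61 to 7.86 among lymph nodes.

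By role, medians are given as deposited unless stated. For the translocation members the median was 7.24 and 7.37 in primary tumors with estrogen, 8.69 and 8.57 after withdrawal, and 8.53 to 9.87 in lymph nodes. The primary tumors with estrogen stood below all other arrays. Degradation medians ran differently, with 4.87 and 4.44 in primary tumors with estrogen, 7.35 and 8.02 after withdrawal, and 5.82 (mouse 6), 3.61 (mouse 11) and 6.65 (mouse 14) in lymph nodes with estrogen against 7.86 (mouse 9), 6.58 (mouse 10) and 5.55 (mouse 19) after withdrawal. The lymph node of mouse 11 stood below both primary tumors with estrogen here, though not for translocation. ATF4 arm medians were 7.28 and 7.27 in withdrawn primary tumors, above all other arrays, and 5.63 to 7.17 elsewhere. After quantile normalization the translocation medians lay closer together. They were 8.10 and 8.21 in primary tumors with estrogen, 8.43 and 8.36 after withdrawal, and 8.49 to 9.52 in lymph nodes.

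Other genes of the same pathways, from a list that does not overlap the members, gave 65 tested genes of 70 listed. In primary tumors 13 of the 65 were called lower with estrogen and 0 higher, where 6.94% of all genes were called lower and 0.879% higher. The median over the 65 was −1.37, against −0.10 over all genes. SRP54 (−2.34 ± 0.27) and SRP14 (−2.38 ± 0.36), which belong to the signal recognition particle, and SEC13 (−2.12 ± 0.28) and SEC16A (−2.60 ± 0.40), which build COPII coats and exit sites, had the greatest moderated t. After quantile normalization 2 were called lower, SEC16A (−1.93 ± 0.32, limma adjusted p = 0.0338) and ATF3 (−1.64 ± 0.32, limma adjusted p = 0.0479), a stress transcription factor of the ATF4 arm. Of all genes 0.6% were called lower and 0.775% higher on that scale. The median was −0.46 over the 65 and 0.06 over all genes. ATF3 had the same difference of −1.64 as deposited, though 2 of its 4 probe sets had the other sign. In lymph nodes against primary tumors with estrogen 16 were called higher and 0 lower, where 7.81% of all genes were called higher and 0.949% lower. The 16 were led by the disulfide isomerase family gene TXNDC5 (2.77 ± 0.31), SEC13 (2.15 ± 0.26), the cargo receptor gene TMED2 (2.50 ± 0.34) and EIF2S1 (2.31 ± 0.32), which encodes the initiation factor subunit that EIF2AK3 phosphorylates. After quantile normalization 0 of the 65 were called, where 0.0932% of all genes were called higher and 0.414% lower. In the other 3 comparisons 0 of the 65 were called on either scale, and at most 0.0116% of all genes were.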

How the data were processed

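Per the labels' protocols, cells were laser-captured from frozen sections, and their RNA was PCR amplified, labelled with biotin and hybridized to arrays of 61359 probe sets. Amplification of small samples adds noise and can favor 3′ ends. The authors deposited 1 log2 signal per probe set and array, made with Partek and RMA per the submitters' processing notes, which give no versions. The quantile scale was made from these deposited log2 values with limma's normalizeQuantiles.

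Symbols came from the platform annotation table, in which 44532 probe sets had 1 symbol, 1492 several and 15273 none, with 62 controls left out. Genes were kept where their mean reached the 25th percentile of probe set means (2.311), which left 17170 genes (17167 on the quantile scale).

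The fit used limma 3.58.1 in R 4.3.3 with all 10 arrays, 1 mean per group and mouse as a random block (consensus correlation −0.0415), for 5 comparisons. Mouse numbers in the labels pair the sites. Deviations from group means correlated at 0.176, −0.208, −0.21 and 0.0831 in mice 10, 11, 14 and 19. The fits were tested on simulated data.

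The members and lists were chosen with earlier results of these data known. By rule, values on every array were given for up to 12 called members with the greatest absolute moderated t and for 7 preset genes, and where fewer than 6 were called the 3 highest and 3 lowest by t were named. HSP90B1 and EIF2AK3 were added on every array after their values were seen. The 10 arrays came from 6 mice, and their number limits the precision. Alternatives covered the normalization, the filter, the probe set rule, the block, the arrays in the fit, eBayes with trend and robust, the hybridization controls as a covariate and each array left out.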

Additional observations from a re-analysis of the deposited data

How the results depend on the processing

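In primary tumors, where 9 members were called, 0 were called after quantile normalization (1.37% of all genes), 3 with the mean of all probe sets of a gene (4.17%), 24 with only the 4 arrays compared (21.5%) and 28 with the hybridization control mean as a covariate (34.9%). Leaving out 1 array gave 0 to 20 (0.0291% to 20.8% of all genes). The median member difference was −0.41 after quantile normalization, −0.72 with the probe set mean and −2.27 with the covariate. In lymph node against primary tumor with estrogen, where 11 were called, the counts were 1 after quantile normalization (0.507% of all genes), 6 with the probe set mean (5.07%) and 29 with the covariate (29%). They were 0 with mouse as a fixed replicate block and 0 with only the 5 arrays compared (0% of all genes in both), and leaving out 1 array gave 4 to 26 (1.05% to 22.4%). The median was 0.43 after quantile normalization and 0.75 with the probe set mean. Without the replicate block the counts were 9 and 12, and it changed no count of calls by over 1.5 times. After withdrawal the covariate gave 12 calls (13.3% of all genes) and a median of −0.44. For the difference between responses it gave 28 calls (23.6% of all genes) and a median of 2.11, against 0.40 after quantile normalization and 0.70 with the probe set mean, and leaving out 1 array gave 0 to 13 calls (0% to 8.99%). The lymph node comparison had 0 calls under all its alternatives. The cause of these changes was not tested. The hybridization controls separate both primary tumor groups, so the covariate and the pellet state cannot be told apart there. With an array left out of a group of 2, the lone array is assumed to vary like the other groups.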
